A study of Homo sapiens with 6 samples.

Results

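AHNAK, its paralog AHNAK2, annexins A1 and A2, and the S100 proteins A4, A6, A10 and A11 were examined as one group of calcium- and membrane-binding partners. The genes were taken by symbol from the deposited table. Of 9 symbols looked for (these 8 and ANXA5), 8 had a row among 16569 genes, and ANXA5 was not analysed here. AHNAK stood among the strongest falls in an earlier reading of these same libraries and the other genes were gathered around it, so the set was chosen by its IGFBP-7 and PBS values. For the 8 genes those values are given as a description, without a test. The libraries came from LX-2, an immortalised line of human hepatic stellate cells, the liver pericytes that become scar-forming myofibroblasts on injury. Cells labelled wild type grew with 2% fetal bovine serum, were starved of serum for 18 h, and then received either 100 ng/mL of IGFBP-7, a secreted relative of the proteins that bind insulin-like growth factors, or phosphate-buffered saline (PBS), each for 24 h. Poly(A) RNA was sequenced from 3 libraries with IGFBP-7 and 3 with PBS. The labels do not state separate cultures within a group, so any p-value measures the spread between libraries, which may be technical.

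Annexins are cytosolic proteins that bind acidic phospholipids when calcium rises. S100 proteins are small dimeric EF-hand proteins that dock onto annexin tails and other targets. S100A10, which has lost calcium binding, pairs with annexin A2 in a tight complex that sits under the plasma membrane, recruits the giant scaffold protein AHNAK, and takes part in membrane repair, channel trafficking and plasmin formation at the cell surface. Annexin A1, first known as lipocortin, pairs in the same manner with S100A11 and is known as an inhibitor of phospholipase A2 and of inflammation. Annexin A11 is a partner of S100A6, and S100A4 binds non-muscle myosin and is widely used as a fibroblast marker.

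The levels below are the authors' normalized counts, that is, reads per gene divided by a scaling factor for each library. Reads recovered on the genes of the table numbered 45242993 to 55479940 with IGFBP-7 and 40599380 to 43537923 with PBS, with 2 reads taken as 1 fragment. Libraries correlated at 0.987 to 0.989 within groups and 0.952 to 0.954 between groups across genes, and genes are not independent replicates. A log2 change is IGFBP-7 minus PBS on log2(normalized count + 1), given with its standard error (SE) from limma. The added 1 shrinks ratios of low values, and as an average of logs the change of a low gene with scattered libraries can also be larger than that of its means. The test took in 11872 genes, those whose mean reached 10 normalized counts; 3721 were higher and 3471 lower with IGFBP-7 at a Benjamini-Hochberg adjusted p under 0.05. Scaling to the library total in place of the authors' scaling gave 2435 higher and 4176 lower and moved the median change of all tested genes by -0.14. Of 10 stellate and fibroblast markers, 8 had a row and 7 were above 3 fragments in all 6 libraries, with summed levels of 253821 to 279990 with IGFBP-7 and 87219 to 89718 with PBS. Most of that sum was COL1A1, at 198928 ± 8843 and 49614 ± 1794, whereas COL3A1 was 1.21-fold higher and HAND2 was lower, at 70.8 ± 12.1 and 107 ± 17.9 (SD, n = 3 each); the muscle-type filament gene DES was at 0 in every library but 1. Of the hepatocyte markers, 1 of 6 (SERPINA1) was above 3 fragments throughout, with summed levels of 219 to 260 and 242 to 288, and ALB was at 0 to 3.39 with IGFBP-7 and 0 to 2.14 with PBS. Of 6 endothelial markers 4 were, with sums of 421 to 485 and 296 to 340, while CDH5 and EMCN were at 0 in each IGFBP-7 library. Of 8 leukocyte markers 4 were, with sums of 1736 to 2016 and 3286 to 3370, mostly CD68, while CSF1R went the other way with 293 ± 44.3 and 56.5 ± 8.05 (SD, n = 3 each); PTPRC, the pan-leukocyte marker, was at 1.02 to 6.77 and 1.96 to 10.7 and CD3E was at 0 in all libraries but 1 with IGFBP-7. Of 6 epithelial markers 3 (KRT7, KRT8 and KRT18) were, with sums of 36424 to 42635 and 26612 to 27450, while CDH1 was at 0 in all libraries but 1 with IGFBP-7. The part of these markers in the values below was not tested. In bulk RNA, fewer cells with a transcript and less of it per cell cannot be told apart.

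Of the 8 genes, 6 were lower in every IGFBP-7 library than in every PBS library, 1 (S100A11) was higher, and 1 (S100A4) overlapped between groups. Over all tested genes, 63.5% did not overlap, 30.6% lower and 32.9% higher with IGFBP-7. As the values chose the genes, nothing is read from that contrast. The median log2 change of the 8 was -0.75, against 0.02 over all tested genes. Together the 8 genes made up 0.51% to 0.536% of the normalized counts of an IGFBP-7 library and 1.32% to 1.37% of those of a PBS library. Without AHNAK the shares were 0.317% to 0.342% and 0.601% to 0.64%.

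**Figure D1:**
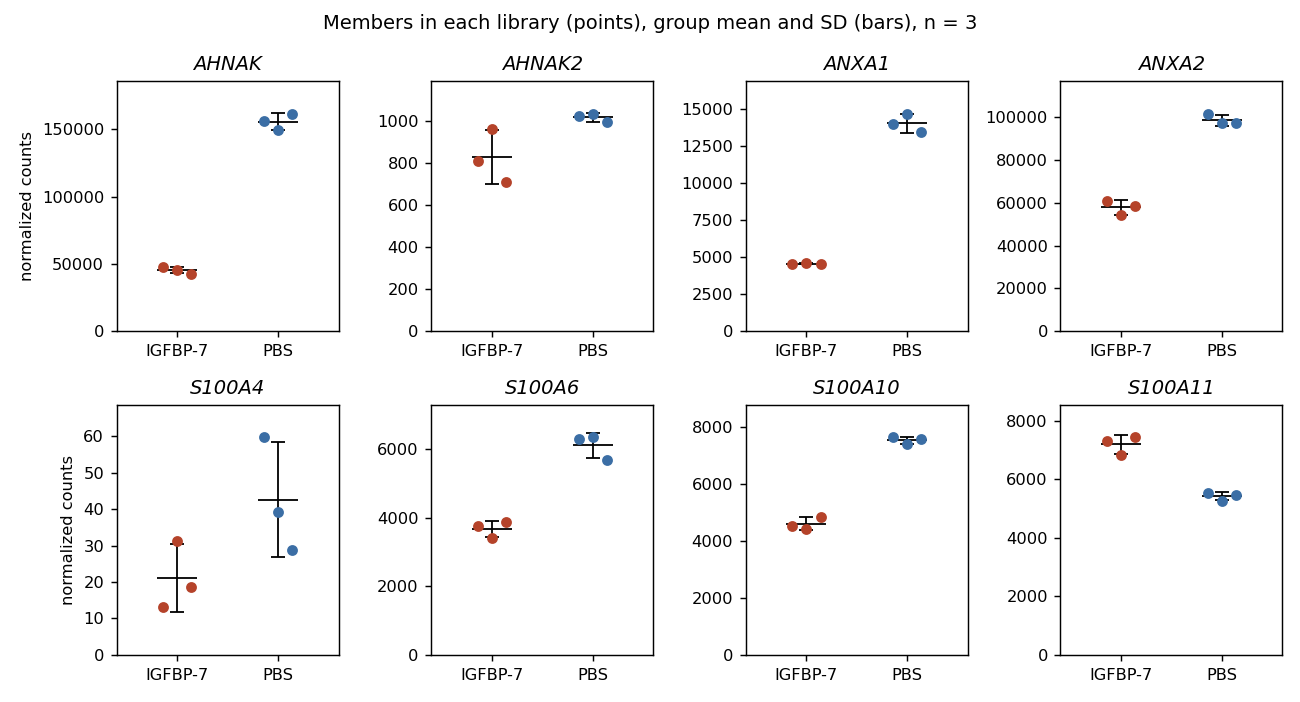
Normalized counts of the 8 genes in each library, with IGFBP-7 libraries at the left of each panel and PBS libraries at the right, each panel on its own linear axis from 0. Points are libraries and bars the mean and SD of 3; AHNAK averages 45244 with IGFBP-7 and 155591 with PBS, S100A11 is the gene with its IGFBP-7 points on top, and in S100A4 the points of the groups overlap.

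AHNAK, the scaffold of the group, had 47411, 45525 and 42796 normalized counts in the IGFBP-7 libraries, against 156115, 149124 and 161534 in the PBS libraries. Every IGFBP-7 library lay far below the lowest PBS library, and the libraries of a group were close together. The means were 45244 ± 2320 and 155591 ± 6221 (SD, n = 3 each), a log2 change of -1.78 ± 0.04 (SE), or 3.44-fold lower with IGFBP-7; after quantile normalization it was -2.83. Of the tested genes, 238, or 2.00%, had a more negative log2 change. AHNAK was chosen as one of the strongest falls, so nothing is read from that place. AHNAK ranked between 26 and 31 by level among the genes of an IGFBP-7 library, and 1 in each PBS library. Its share of a library was 0.183% to 0.197% with IGFBP-7 and 0.698% to 0.745% with PBS.

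Its length bears on that rank. The longest protein-coding AHNAK transcript in GENCODE 29 has 18787 bases in 5 exons on chromosome 11, and a single exon carries 98.1% of its 17670 coding bases. A long transcript yields more fragments per molecule, so levels of different genes are set side by side per kilobase of the longest transcript. On that scale AHNAK had 2408 ± 123 normalized counts per kilobase with IGFBP-7 and 8282 ± 331 with PBS (SD, n = 3 each). ANXA2, which ranked below AHNAK by total in PBS libraries, had 34552 ± 2094 and 58876 ± 1536 per kilobase. Levels of S100A11 were 12100 ± 522 and 9137 ± 252, those of S100A6 5474 ± 351 and 9083 ± 557, and those of S100A10 3825 ± 189 and 6267 ± 105, all per kilobase. ANXA1 had 2061 ± 18.6 and 6359 ± 283, and the lowest were AHNAK2 at 45.5 ± 7.02 and 55.9 ± 1.19 and S100A4 at 35.1 ± 15.5 and 71.0 ± 26.2 per kilobase. By these per-kilobase means the order with IGFBP-7 was ANXA2, S100A11, S100A6, S100A10, AHNAK, ANXA1, AHNAK2 and S100A4. With PBS it was ANXA2, S100A11, S100A6, AHNAK, ANXA1, S100A10, S100A4 and AHNAK2. Neighbours in the order whose libraries overlapped were AHNAK2 and S100A4 with IGFBP-7, and with PBS the pairs S100A11 and S100A6, S100A6 and AHNAK, ANXA1 and S100A10, and S100A4 and AHNAK2. Both orders rest on the length of the longest transcript, and which transcripts these cells made was not tested. ANXA2 may also have lost reads to copies of it, as given below.

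AHNAK2 encodes a second giant protein of the same repeat family. It had 814, 965 and 711 normalized counts with IGFBP-7 and 1028, 1037 and 995 with PBS. The highest IGFBP-7 library was close to the lowest PBS library, and the IGFBP-7 libraries were the more scattered, with a coefficient of variation of 15.4% against 2.14%. The log2 change was -0.31 ± 0.09, and it was -0.20 without IGFBP-7 replicate 3. AHNAK therefore stood at 5521 ± 704 counts per 100 of AHNAK2 with IGFBP-7 and 15266 ± 926 with PBS (SD, n = 3 each), on totals, both transcripts being of like length (18254 bases for AHNAK2). Both are built of repeats: 8.63% of the 50-base windows of the AHNAK transcript and 12.4% of those of AHNAK2 occur more than once within the transcript itself. No 50-base window of AHNAK occurs in a transcript of another GENCODE 29 gene, AHNAK2 included, while 2.33% of AHNAK2 windows are shared with PLD4.

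Annexin A1 was the member most like AHNAK. ANXA1 had 4547, 4595 and 4513 normalized counts with IGFBP-7, against 13981, 14700 and 13457 with PBS. The 3 IGFBP-7 libraries were nearly equal, with a coefficient of variation of 0.903%, and lay far below the PBS libraries. The log2 change was -1.62 ± 0.05, or 3.08-fold lower. Likeness was taken as the Euclidean distance between log2 profiles over the 6 libraries, each centred on its mean, where 0 means an identical course. By that measure ANXA1 lay 0.277 from AHNAK and 29 tested genes lay nearer, while the other members lay at 1.25 to 2.68. The 5 nearest genes outside the group were SLIT2, an axon guidance ligand gene, at 0.102, PREX1, a Rac exchange factor gene, at 0.108, COL12A1, a fibril-associated collagen gene, at 0.113, NIBAN1 at 0.119, and MAP3K5, a stress kinase gene, at 0.137. SLIT2 had 5193, 4626 and 4727 normalized counts with IGFBP-7 and 16412, 15596 and 16909 with PBS. The same 5 genes were nearest after scaling to the library total. The measure uses the group difference itself, so these genes are a description of likeness over 6 libraries.

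Annexin A2 and S100A10, the subunits of the complex that holds AHNAK, kept nearly the same ratio. ANXA2 had 61048, 54120 and 58562 normalized counts with IGFBP-7, against 101645, 97331 and 97053 with PBS, a log2 change of -0.77 ± 0.04. S100A10 had 4535, 4409 and 4850 with IGFBP-7, against 7637, 7392 and 7570 with PBS, a log2 change of -0.71 ± 0.05. In both genes the groups were well apart, with ANXA2 41.4% lower and S100A10 39.0% lower with IGFBP-7. Within a library, S100A10 made 7.43, 8.15 and 8.28 counts per 100 of ANXA2 with IGFBP-7 and 7.51, 7.59 and 7.80 with PBS, on totals not corrected for length. The IGFBP-7 ratios spanned those of PBS. The profiles of the pair lay 0.144 apart. Of the tested genes, 1272 had a more negative log2 change than ANXA2 and 1429 than S100A10. Other genes therefore moved by a like amount, and how many lay as near in profile was not counted. The genes were chosen with these values known, so nothing is read from the likeness.

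S100A6, known as calcyclin, had a log2 change between those of that pair, and 1381 tested genes had a more negative one. It had 3757, 3420 and 3875 normalized counts with IGFBP-7 and 6309, 6349 and 5681 with PBS, a log2 change of -0.73 ± 0.06. Its profile lay 0.142 from that of ANXA2 and 0.158 from that of S100A10. Per 100 of S100A10 there were 80.1 ± 2.65 counts of S100A6 with IGFBP-7 and 81.2 ± 5.56 with PBS (SD, n = 3 each), values that overlapped. AHNAK was lower still than ANXA2: per 100 of ANXA2 there were 77.7, 84.1 and 73.1 counts of AHNAK with IGFBP-7 and 154, 153 and 166 with PBS.

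S100A11 was the member that was higher with IGFBP-7. It had 7294, 6838 and 7430 normalized counts with IGFBP-7, against 5545, 5259 and 5478 with PBS. All 3 IGFBP-7 libraries were above the PBS libraries, with a log2 change of 0.40 ± 0.05, or 1.32-fold, and 0.26 after scaling to the library total. Its annexin partner ANXA1 was lower, so S100A11 made 160, 149 and 165 counts per 100 of ANXA1 with IGFBP-7, against 39.7, 35.8 and 40.7 with PBS. The mean ratio was 4.08-fold that of PBS. S100A6 likewise made 51.2 ± 1.10 counts per 100 of S100A11 with IGFBP-7 and 113 ± 8.56 with PBS (SD, n = 3 each).

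**Figure D2:**
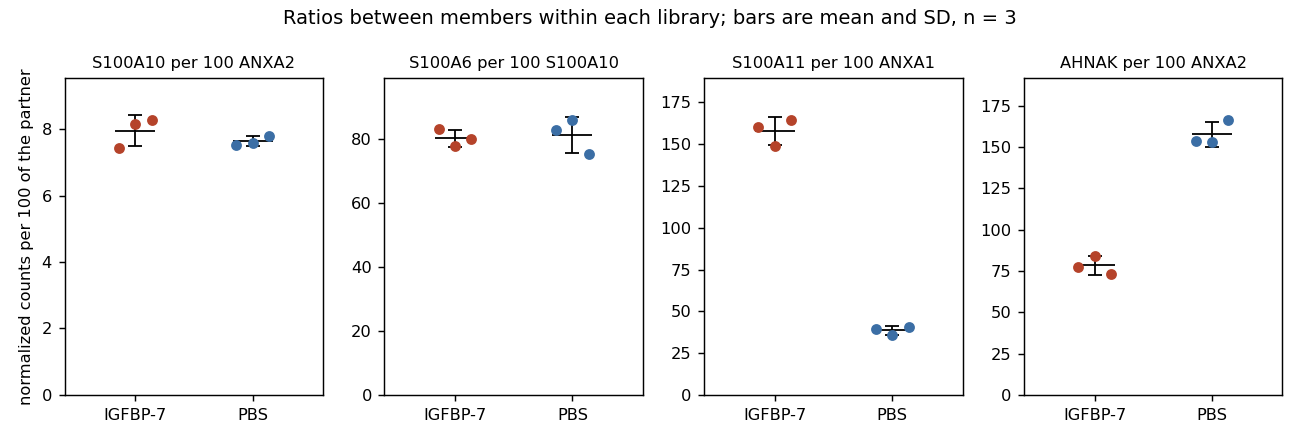
Normalized counts of one gene per 100 of its partner within each library, not corrected for length, with IGFBP-7 at the left and PBS at the right of each panel. Points are libraries and bars the mean and SD of 3; S100A10 per ANXA2 and S100A6 per S100A10 overlap between groups, S100A11 per ANXA1 is near 158 with IGFBP-7 and near 39 with PBS, and AHNAK per ANXA2 is near 78 and 158.

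S100A4 was barely present in these cells. It had 13.3, 31.3 and 18.6 normalized counts with IGFBP-7, from 13, 37 and 18 fragments, and 59.7, 39.3 and 28.8 with PBS, from 58, 40 and 27 fragments. The groups overlapped, and the log2 change was -1.0 ± 0.40, between -1.32 and -0.73 when single libraries were left out.

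**Figure D3:**
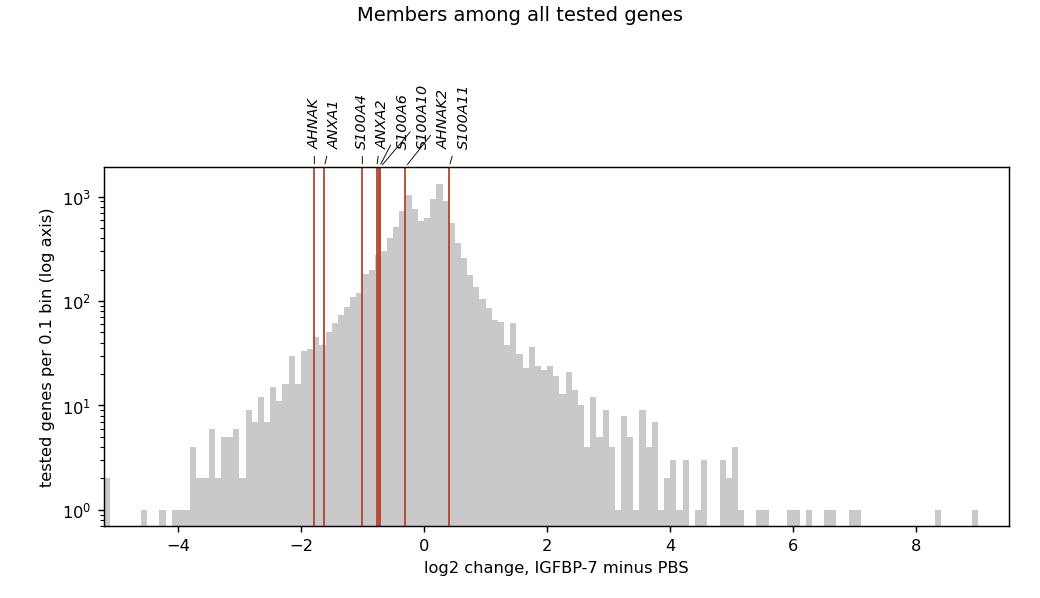
Histogram of the log2 change, IGFBP-7 minus PBS, of the 11872 tested genes (horizontal axis, bins of 0.1; vertical axis, genes per bin on a log scale), with a red line for each of the 8 genes. AHNAK and ANXA1 stand in the left tail at -1.78 and -1.62, S100A10, S100A6 and ANXA2 sit together between -0.71 and -0.77, and S100A11 is the line right of 0.

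Sequences upstream of the starts were compared because AHNAK and ANXA1 were alike in level course while S100A11 went the other way. The 250 bases before each start were read from RefSeq (GRCh38.p14), where all 9 symbols had an entry. Starts differ between annotations: exons of GENCODE 29 cover 108 of the 250 bases printed for ANXA1, 57 of those for ANXA2, 31 of those for S100A11 and 0 of those for AHNAK, so these windows are not upstream of every annotated transcript. Motifs searched on both strands were AP-1 (TGANTCA), TEAD (GGAATG), SMAD (GTCTAGAC), SP/KLF (GGGCGG), the TATA box (TATAAA), the E-box (CACGTG) and the CArG box, and matches could overlap. Below, capitals mark every match; the windows are chr11:62545827-62546076 (minus strand) for AHNAK, chr9:73151615-73151864 (plus strand) for ANXA1, chr15:60397987-60398236 (minus strand) for ANXA2 and chr1:152037005-152037254 (minus strand) for S100A11, each 5′ to 3′ along the gene.
AHNAK: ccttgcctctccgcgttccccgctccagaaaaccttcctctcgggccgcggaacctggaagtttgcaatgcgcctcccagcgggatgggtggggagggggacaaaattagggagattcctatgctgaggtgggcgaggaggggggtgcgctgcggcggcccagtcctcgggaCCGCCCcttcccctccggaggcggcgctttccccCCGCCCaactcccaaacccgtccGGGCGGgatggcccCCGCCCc
ANXA1: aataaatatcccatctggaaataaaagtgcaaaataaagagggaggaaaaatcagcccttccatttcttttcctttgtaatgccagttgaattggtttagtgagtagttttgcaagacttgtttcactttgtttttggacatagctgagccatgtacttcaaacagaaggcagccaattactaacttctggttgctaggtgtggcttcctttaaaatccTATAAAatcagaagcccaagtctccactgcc
ANXA2: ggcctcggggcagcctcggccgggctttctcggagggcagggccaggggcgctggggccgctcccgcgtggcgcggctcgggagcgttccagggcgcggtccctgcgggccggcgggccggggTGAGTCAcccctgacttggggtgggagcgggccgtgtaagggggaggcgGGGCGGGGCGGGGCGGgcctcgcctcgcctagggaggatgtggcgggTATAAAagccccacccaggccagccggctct
S100A11: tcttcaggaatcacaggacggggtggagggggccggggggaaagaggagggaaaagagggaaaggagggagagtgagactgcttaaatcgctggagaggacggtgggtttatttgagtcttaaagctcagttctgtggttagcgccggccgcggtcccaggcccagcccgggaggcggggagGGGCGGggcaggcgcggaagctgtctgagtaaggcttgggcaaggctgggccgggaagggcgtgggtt
The AHNAK window is 70% G and C with 22 CpG pairs and 4 SP/KLF matches, the nearest 7 bases before the start. The ANXA1 window is 38.4% G and C, has 0 CpG pairs and holds a TATA box match 31 bases before the start. The ANXA2 window holds the single AP-1 match among the members, 127 bases before the start, with 3 overlapping SP/KLF matches and a TATA box match at 31 bases. The S100A11 window had 1 SP/KLF match and no other. Among 35116 RefSeq windows of the same length, an AP-1 match was found in 6.57%, TEAD in 11.9%, SMAD in 0.182%, SP/KLF in 42.6%, the TATA box in 10.7%, the E-box in 6.34% and the CArG box in 1.16%, and the median G and C content was 58.0%. A match is a string of letters and not a bound site, and no match says only that these letters are not in this window.

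The remaining annexins and S100 genes show how far the families moved apart from these members. Members and lists were chosen with earlier results of these data known. Over all tested genes, 60.6% passed the test, 31.3% higher and 29.2% lower with IGFBP-7, and each list is read against those shares. Of 10 other annexins, 7 had a row and 6 were tested; 4 fell and 2 rose, with a median log2 change of -0.995. ANXA3 fell most, with 513, 383 and 511 normalized counts with IGFBP-7 and 2002, 2209 and 2087 with PBS (log2 change -2.17 ± 0.09, limma adjusted p = 6.83e-27). ANXA11, the S100A6 partner, had 3091 ± 183 with IGFBP-7 and 6338 ± 94.4 with PBS (SD, n = 3 each), a log2 change of -1.04 ± 0.05 (limma adjusted p = 1.49e-22). Both lay lower in 3 of 3 IGFBP-7 libraries than in any PBS library, as did 30.6% of all tested genes.

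The other annexin calls rest on few reads. ANXA9 had 17.4, 17.8 and 24.8 normalized counts with IGFBP-7 and 43.2, 32.4 and 42.7 with PBS (limma adjusted p = 0.0291, and 0.0139 to 0.0885 over its alternatives), and its call was lost without IGFBP-7 replicate 1 or 2 and without PBS replicate 1 or 3. ANXA10 had 24.5, 8.47 and 0 with IGFBP-7 and 11.3, 31.4 and 19.2 with PBS, groups that overlap (limma adjusted p = 0.0446, and 0.00615 to 0.616 over its alternatives, not passing in 8 of 13). Its log2 change was -1.69 ± 0.74, -0.93 by edgeR, -2.71 without IGFBP-7 replicate 1 and -0.37 without IGFBP-7 replicate 3; the call was lost in the last case and without PBS replicate 2 or 3. ANXA8 had 57.2, 60.1 and 77.5 with IGFBP-7 and 12.4, 12.8 and 1.07 with PBS, a log2 change of 3.17 ± 0.51 (limma adjusted p = 4.63e-07). Its copy ANXA8L1 had 32.7, 26.3 and 20.7 with IGFBP-7 and 0, 9.82 and 2.14 with PBS, a log2 change of 3.07 ± 0.73 (limma adjusted p = 0.000306). These copies are nearly identical in sequence, so how reads fell between them is uncertain. With a filter at a mean of 100, ANXA3 and ANXA11 were the annexins left, both lower, and 2 were also called lower without a filter and without PBS replicate 3.

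Of 16 other S100 genes, 10 had a row and 5 were tested. Of these 5, 2 rose, 0 fell and 3 did not pass, so 40% passed, against 60.6% of all tested genes. The median log2 change of the 5 was 0.40. S100A13, a copper-binding member, had 2696, 2671 and 3044 normalized counts with IGFBP-7 and 2183, 2156 and 2035 with PBS, a log2 change of 0.40 ± 0.06 (limma adjusted p = 5.08e-07). S100A16 had 1062, 1191 and 1157 with IGFBP-7 and 907, 811 and 848 with PBS, a log2 change of 0.41 ± 0.08 (limma adjusted p = 2.93e-05). Scaled to the library total, these log2 changes were 0.26 for S100A13 and 0.27 for S100A16, and both passed. In both genes, 3 of 3 IGFBP-7 libraries lay above the PBS libraries, as in 32.9% of all tested genes. S100A1 was at 0.46 ± 0.25, S100A2 at 0.19 ± 0.21 and S100A3 at -0.12 ± 0.16 on the log2 scale, with limma adjusted p of 0.107, 0.436 and 0.551; S100A1 passed without PBS replicate 3 (limma adjusted p = 0.0492, within 0.0486 to 0.428 over its alternatives). S100A5, S100A8, S100A14, S100B and S100P were under the level needed for the test. Most S100 genes lie along chromosome 1, and in the order of RefSeq S100A10 and S100A11 come first. S100A9, S100A12, S100A8, S100A15A, S100A7A and S100A7 follow, of which S100A8 alone had a row, and then comes the run S100A6, S100A5, S100A4, S100A3, S100A2, S100A16, S100A14, S100A13 and S100A1. Neighbours in the pair at the front had opposite signs, -0.71 for S100A10 and 0.40 for S100A11. In the run, log2 changes were negative in S100A6, S100A4 and S100A3 and positive in S100A2, S100A16, S100A13 and S100A1. Of these, S100A3, S100A2 and S100A1 did not pass and S100A4 overlapped between groups. S100A5 and S100A14 were not tested, so nothing is read from the order of signs.

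**Figure D4:**
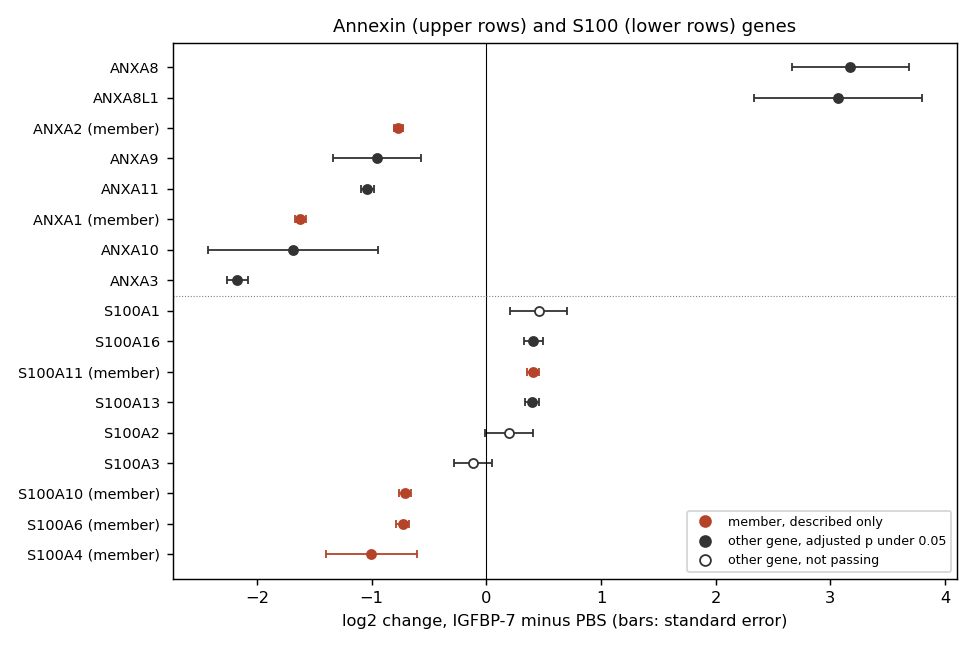
Log2 change, IGFBP-7 minus PBS (horizontal axis), of annexin genes (upper rows) and S100 genes (lower rows), with bars for the standard error. Red points are the members, which were not tested; filled black points passed at an adjusted p under 0.05 and open ones did not. ANXA3 is lowest at -2.17, and S100A13 and S100A16 lie beside S100A11 near 0.40.

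Tested genes of plasma membrane repair, the process in which annexins and S100 proteins reseal tears, were mostly lower with IGFBP-7. Of 34 listed genes 20 had a row and 18 were tested: 12 fell, 3 rose and 3 did not pass. Over all tested genes, 29.2% were called lower and 31.3% higher. Listed genes without a row included CHMP2A, CHMP3, CHMP4A, CHMP4B, VPS4A, VPS4B, TSG101, PDCD6, PDCD6IP, CAPNS1 and EHD4. The counts therefore do not speak for that part of the process. The median log2 change of the 18 was -0.37. MYOF, which encodes the membrane-fusion ferlin myoferlin, had 5383 ± 395 normalized counts with IGFBP-7 and 13307 ± 457 with PBS (SD, n = 3 each), a log2 change of -1.31 ± 0.05 (limma adjusted p = 2.18e-28). CAV1, the caveolar coat gene, had 9967 ± 418 and 19424 ± 105 (log2 change -0.96 ± 0.04), and CAPN2, a calcium-activated protease gene, had 12013 ± 428 and 22205 ± 745 (-0.89 ± 0.04). SMPD1, which encodes acid sphingomyelinase, was at -0.86 ± 0.07. Of the rising genes, SYT7, a calcium sensor of lysosome exocytosis, had 44.0 ± 10.2 with IGFBP-7 and 10.3 ± 4.41 with PBS (limma adjusted p = 0.000112), BIN1, a membrane-curving protein gene, was at 0.44 ± 0.05, and ANO6, a lipid scramblase gene, at 0.30 ± 0.05, or 0.16 after scaling to the library total. In each of these 7 genes the groups did not overlap, as in 63.5% of all tested genes. The 7 were named for the largest changes among called genes, so nothing is read from that. The 12 and 3 calls were the same in number when any library was left out. The list was chosen with earlier results of these same libraries known, so its lean to lower values is a description.

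Known binding partners of the members were divided. Of 29 listed genes 21 had a row and 16 were tested: 5 rose, 7 fell and 4 did not pass. Of the 16, 75% passed, against 60.6% of all tested genes. All tested genes were divided as well, with 31.3% higher and 29.2% lower. The median log2 change of the 16 was 0.06. HTR1D, a gene of the serotonin receptor class that binds S100A10, had 302, 313 and 309 normalized counts with IGFBP-7 and 27.8, 35.3 and 17.1 with PBS, a log2 change of 3.53 ± 0.23 (limma adjusted p = 9.59e-19). The related receptor gene HTR1B went the other way, with 36.8, 27.1 and 17.6 and 95.8, 66.8 and 45.9 (log2 change -1.32 ± 0.33, limma adjusted p = 0.000637). CACNA1C, the pore subunit of the L-type calcium channel to which AHNAK is tied in heart muscle, had 224 ± 14 and 72 ± 5.92 (SD, n = 3 each), a log2 change of 1.62 ± 0.19.

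Among the falling partners, SMAD3, the TGF-beta signal mediator, had 4767 ± 179 normalized counts with IGFBP-7 and 10740 ± 250 with PBS (SD, n = 3 each), a log2 change of -1.17 ± 0.05 (limma adjusted p = 9.34e-27). PRKCA, a calcium-dependent kinase gene, was at -0.58 ± 0.05. PLA2G4A, the phospholipase gene restrained by annexin A1, had 36.8, 40.7 and 16.5 with IGFBP-7 and 49.4, 68.7 and 44.9 with PBS (limma adjusted p = 0.0299, and 0.0130 to 0.251 over its alternatives). Its call was lost in 5 of 13 alternatives: no filter, quantile normalization, edgeR, and without IGFBP-7 replicate 3 or PBS replicate 2. FPR3, of the formyl peptide receptors through which annexin A1 signals, had 53.2, 18.6 and 43.4 and 2.06, 15.7 and 40.6, groups that overlap (limma adjusted p = 0.0182, and 0.000175 to 0.443 over its alternatives). It was called higher, but the call was lost in 6 of 13 alternatives: no filter, edgeR, DESeq2, and without IGFBP-7 replicate 1 or 3 or PBS replicate 1. The main annexin A1 receptor genes FPR1 and FPR2 were under the level needed for the test.

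Calcium sensors outside the S100 family also went both ways. Of 17 listed genes 12 had a row and 10 were tested: 6 rose, 4 fell and 0 did not pass. All 10 thus passed, against 60.6% of all tested genes, 31.3% higher and 29.2% lower. The median log2 change of the 10 was 0.21, and under library-total scaling 3 rose. CALB2, which encodes calretinin, had 908, 827 and 889 normalized counts with IGFBP-7 and 124, 79.5 and 79.0 with PBS, a log2 change of 3.23 ± 0.14 (limma adjusted p = 1.00e-25). EFHD1, a mitochondrial sensor gene, was at 1.37 ± 0.16, NCS1, a neuronal sensor gene, at 0.87 ± 0.05, and CALML4 at 0.25 ± 0.09, a call lost with scaling to the library total and without IGFBP-7 replicate 2 (limma adjusted p = 0.0117, and 0.00629 to 0.286 over its alternatives). HPCAL1, a neuronal calcium sensor relative, had 2152 ± 11.3 and 10228 ± 451 (SD, n = 3 each), a log2 change of -2.25 ± 0.05 (limma adjusted p = 1.35e-37). CALM3, a calmodulin gene, was at -0.50 ± 0.04, GCA, which encodes grancalcin, at -0.37 ± 0.10 and EFHD2 at -0.30 ± 0.05.

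**Figure D5:**
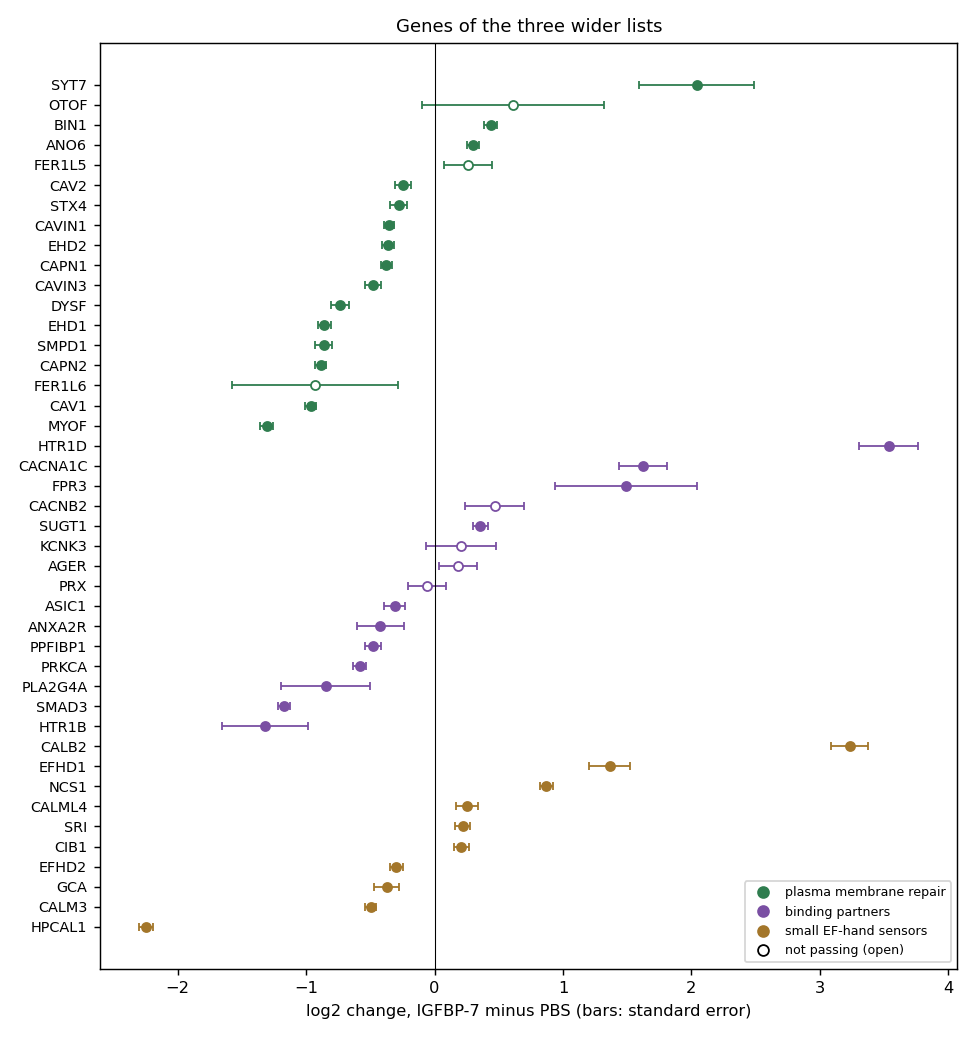
Log2 change, IGFBP-7 minus PBS (horizontal axis), of tested genes for plasma membrane repair (green), binding partners (purple) and small EF-hand sensors (brown), with bars for the standard error; open points did not pass at an adjusted p under 0.05. Most green points lie left of 0, with MYOF lowest at -1.31, while HTR1D at 3.53 and CALB2 at 3.23 lie far right.

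Counting may affect ANXA2 most. Of the 50-base windows of its longest transcript, 35.3% also occur in the processed copies ANXA2P1, ANXA2P2 or ANXA2P3, none of which had a row in the table, so reads from those windows may have been lost or moved. For S100A11 the share was 2.20%, and for AHNAK, ANXA1, S100A4, S100A6 and S100A10 it was 0%. No row of the table was named as an antisense gene of a member.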

How the data were processed

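Gene expression was measured by RNA sequencing of poly(A) RNA from LX-2 cells, 3 libraries with IGFBP-7 and 3 with PBS, grouped by title and treatment label. Libraries were made with a directional kit, per the labels' protocols. Per the file headers, the deposited values are normalized counts, a linear-scale signal the authors derived from their reads. The tools STAR, Subread, featureCounts and DESeq2 appear, with no role or version, per the submitters' processing notes. Sources used here state no genome build, annotation release or strand option for the counting, so reads of overlapping genes on opposite strands cannot be told apart. Annotation and promoter coordinates are those of GENCODE 29 and RefSeq alone.

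Each value was a whole multiple of 1 step per library (100% within 0.01 of a step), which gave back the reads; 99.6% of the nonzero counts were even in each library. A floor of 3 fragments is 2.54 to 3.20 normalized counts in 1 library, and covers counting error only. Chi-square per degree of freedom between libraries of a group was 5.10 to 6.93, so none was counted as a repeat. Columns left unused numbered 0.

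limma 3.58.1 (R 4.3.3) with a mean-variance trend was fitted to log2(normalized count + 1) of all genes with a mean of at least 10, two-sided, with Benjamini-Hochberg adjustment over all of them and a threshold of 0.05. The steps were run on simulated data with a fixed dispersion and few changed genes. These libraries differ in that 60.6% of tested genes were called, so that run checks the code alone. Alternatives were a pseudocount of 10, a mean of at least 100, no filter, scaling to the library total, quantile normalization, edgeR 4.0.16 and DESeq2 1.42.0 on recovered reads, a replicate block, and leaving out each library. edgeR called 3541 genes higher and 3562 lower, and DESeq2 3572 and 3536. Members and lists were chosen with earlier results of these data known. Named genes were the members, all tested annexins and S100 genes, up to 4 called genes per direction with the largest change in each wider list, and the 5 genes nearest to AHNAK; a gene of the binding partner list that the rule names is not reported here. Shared windows were 50 bases, on both strands, over all GENCODE 29 transcripts.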

Additional observations from a re-analysis of the deposited data

How the results depend on the processing

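Among the main values, 262 refits stayed within the spread between libraries (log2 changes) or within 1.5 times (counts), 17 moved by more, and no value changed sign. The filter settings and the replicate block cannot alter a limma log2 change. Those refits of log2 changes stayed the same by construction and count among the 262. Scaling to the library total gave log2 changes of -1.92 for AHNAK, -1.77 for ANXA1, -0.91 for ANXA2, -0.87 for S100A6, -0.85 for S100A10 and 0.26 for S100A11, 2435 higher genes over the table, and 3 higher small EF-hand sensors against 6. Quantile normalization gave -2.83 for AHNAK, -1.72 for ANXA1, -1.15 for ANXA2 and 0.34 for S100A11; it sets the highest value of each library equal, and AHNAK held that place in PBS libraries. Other annexins called lower numbered 2 with a mean of at least 100, where 0 were called higher, 2 without a filter, and 2 to 3 with single libraries left out, against 4. Other S100 genes called lower numbered 2 without a filter, against 0. Log2 changes ran from -1.82 to -1.74 for AHNAK and from 0.38 to 0.44 for S100A11 with single libraries left out.

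Replicate numbers are shared between groups. With each group centred on its mean, same-numbered libraries did not deviate together over all genes (r = -0.0452, 0.0117 and -0.0491). Such r cannot show a batch that acts on few genes, so whether same-numbered libraries share more than a number was not tested. With the number as a block, 3715 genes were higher and 3462 lower, and the 39 tested genes followed across the alternatives kept their side of the threshold. In this balanced design a block cannot alter a log2 change, so the direction of each gene was fixed beforehand. No library correlated best with its own number in the other group.

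Depth limits S100A4, ANXA9, ANXA10 and ANXA8L1, which had few fragments a library. DES and the hepatocyte markers other than SERPINA1 lay near the floor. In all libraries, 4 of 6 endothelial, 4 of 8 leukocyte and 3 of 6 epithelial markers were above it. Among them KRT8 averaged 22821 with IGFBP-7 and 14472 with PBS, and CD68 1466 and 2863.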
